A study of Mus musculus with 8 samples.

Results

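Potassium channel genes were followed in the whole cortex of 8 mice, in libraries of polyadenylated RNA. They were taken as the rows of the deposited count table whose symbol begins with Kcn, the prefix shared by potassium channel subunits and several of their accessory proteins, and that held 10 or more reads in 4 or more libraries. The rule kept 74 of 94 such rows, out of 22000 rows in the table, of which 13928 met the same read minimum. The mice were 4 labelled Mef2c heterozygous and 4 labelled Mef2c wild type, with 2 males and 2 females of each genotype. The titles hold 2 runs of animal numbers, called here the first and the second series, each with 1 animal of each sex and genotype, and no label says what the runs stand for. The sources used here do not give the allele, the strain, the age or any treatment of the mice.

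Potassium channels let potassium leave or enter a cell, set its resting potential and end its action potentials. In the cortex the voltage-gated families shape firing and transmitter release in neurons, the two-pore-domain channels carry leak currents, and the inward rectifiers hold the resting potential of neurons and, in astrocytes, take up potassium released by firing. Mef2c encodes a transcription factor of the MEF2 family that takes part in the development of cortical neurons and their synapses.

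Library totals lay between 16092773 and 17841377 reads, and RNA integrity numbers between 8.6 and 9. Markers of excitatory cortical neurons were abundant, with summed levels of 9355 to 9961 CPM (counts scaled to a common library total) in the libraries labelled heterozygous and 9066 to 9886 CPM in those labelled wild type. Mef2c itself had 1233, 1336, 1391.5 and 1255 CPM in the libraries labelled heterozygous, against 1038, 939, 999 and 1003 CPM in those labelled wild type. The groups did not overlap, and Mef2c was higher in the libraries labelled heterozygous, by 0.39 ± 0.046 on the log2 scale (SE; edgeR adjusted p = 0.000154; two-sided exact permutation p = 0.0286, the smallest that 4 against 4 libraries can give). That direction goes against the loss of 1 copy of the gene, and the sources used here do not say which exons the allele alters. Genotypes are therefore given below as the libraries are labelled, and every direction rests on those labels.

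Of the 74 genes, 72 had 10 or more reads in all 8 libraries. The lowest inside the rule was Kcnmb1, a beta subunit of the calcium-activated BK channel, with 10, 12, 7 and 8 reads in the libraries labelled heterozygous and 10, 11, 10 and 18 in those labelled wild type. Just outside it was Kcnk5, a two-pore-domain channel, with 3, 2, 18 and 15 reads in the libraries labelled heterozygous and 3, 3, 13 and 8 in those labelled wild type. Kcne1, Kcnj1 and Kcnk16 held 0 reads in every library. The genes together took 0.676% to 0.715% of the reads of a library. Their summed level was 7147, 6787, 6777 and 6777 CPM in the libraries labelled heterozygous and 7183, 6850, 7056 and 7005 CPM in those labelled wild type, so the groups overlapped.

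Levels were compared between genes per kilobase of exon, as the mean over all 8 libraries. The highest was Kcnab2, a beta subunit of Kv1 channels that helps bring them to the axon, at 82.9 CPM per kb. It was followed by Kcnj4, an inward rectifier of forebrain neurons, at 57.93 CPM per kb and by Kcnk1, a weakly conducting two-pore-domain channel, at 57.90 CPM per kb. The last 2 differed by less than their spread between libraries, and Kcnj9 (48.3 CPM per kb), a subunit of G-protein-gated channels, and Kcnj10 (48.1 CPM per kb), the main astrocyte inward rectifier, likewise stood level. The 5 highest genes held 25.5% and the 10 highest 43.2% of the summed level per kb of the 74. At the low end lay Kcnmb1 at 0.151, Kcne4, a KCNE accessory subunit, at 0.323 and Kcnj13, an inward rectifier of choroid plexus, at 0.572 CPM per kb. Of the exon bases of Kcnj13, 49.1% are shared with a gene on the opposite strand, which the counting may not separate. Of the 74 genes, 26 averaged 100 CPM or more, 57 averaged 10 CPM or more and 3 averaged under 1 CPM.

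**Figure D1:**
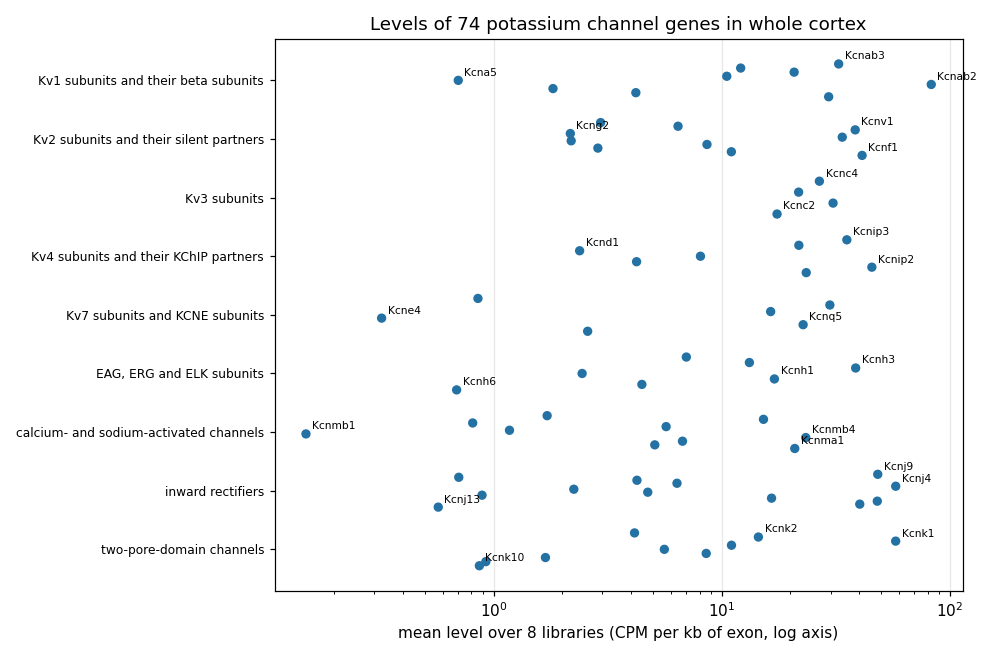
Mean level of each of the 74 genes over the 8 libraries, in CPM per kb of exon on a log axis, in rows by role; each point is 1 gene, spread vertically within its row for legibility. Levels ran from 0.151 for Kcnmb1 to 82.9 for Kcnab2, and most roles held both abundant and scarce genes.

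No potassium channel gene was called for genotype: edgeR called 0 of 74 at an adjusted p under 0.05, against 37 of 13879 genes tested (0.267%), and DESeq2 and limma-voom also called 0. The smallest adjusted p was 0.196, for Kcnj10. With the 4 pairs of the same series and sex as a block, a fit added after the results were seen, edgeR called 1 of 74, Kcnj10, against 0.893% of all genes. At an unadjusted p under 0.05 there were 12 of the 74 (16.2%), against 7.24% of all genes. Of these 10 were lower in the libraries labelled heterozygous (13.5%, against 3.7% of all genes) and 2 were higher (2.70%, against 3.54%). Values of the genotypes did not overlap for 3 genes that were lower (4.05%, against 2.38%) and 1 that was higher (1.35%, against 2.16%).

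The differences were small. The log2 fold change, libraries labelled heterozygous over those labelled wild type, lay between -0.47 and 0.37, and 58 of the 74 were within 0.2 of 0. It was below 0 for 47 genes (63.5%, against 50.5% of all genes), with a median of -0.04 beside -0.0011 over all genes tested. No gene reached a 1.5-fold difference, and for 57 of the 74 the 95% interval of the fold change lay within 1.5-fold either way. The median standard error was 0.078 on the log2 scale.

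**Figure D2:**
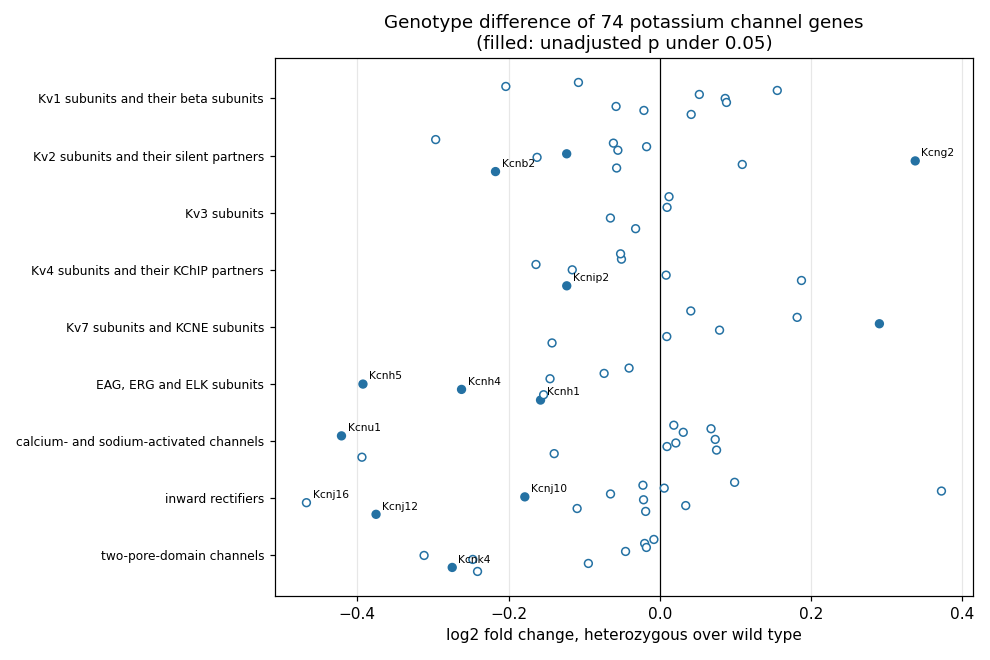
Log2 fold change of each of the 74 genes, heterozygous over wild type, in rows by role; points are genes, spread vertically within a row, and filled points have an unadjusted p under 0.05. All 7 EAG, ERG and ELK genes and all 9 two-pore-domain genes lie left of 0, and 1 of 6 Kv7 and KCNE genes does; none passed the adjusted threshold.

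Among voltage-gated channels, the Kv1 group holds low-threshold channels of axons and terminals with their beta subunits. Of its 9 genes 4 lay below 0, with a median log2 fold change of 0.04, and none had an unadjusted p under 0.05. The median changed sign with the libraries used: it was 0.13 in the first series alone (3 of 9 below 0) and -0.07 in the second (7 of 9), -0.07 without heterozygous replicate 1 (6 of 9), -0.02 without heterozygous replicate 2 (5 of 9) and -0.02 in females alone (7 of 9). Kcnab2 had 507, 478, 457 and 465 CPM in the libraries labelled heterozygous and 466, 429.5, 448 and 450.4 CPM in those labelled wild type. The groups overlapped in heterozygous replicates 3 and 4, and its log2 fold change was 0.09 ± 0.046 (SE). The largest absolute value was -0.20 ± 0.27, for the scarce Kcna5, which had 2.19, 1.86, 1.55 and 1.85 CPM in the libraries labelled heterozygous and 2.09, 2.36, 1.83 and 2.30 CPM in those labelled wild type. These overlapped too. Kcna2, the group's highest pore-forming gene per kb (29.4 CPM per kb), stood at -0.06 ± 0.054 (95% interval -0.17 to 0.05).

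The Kv2 group joins delayed rectifiers of the soma and dendrites, such as Kcnb2, with silent subunits that form no channel alone. Here 8 of 10 genes lay below 0, with a median of -0.06. Kcnb2 had 29.3, 28.8, 31.4 and 33.4 CPM in the libraries labelled heterozygous and 38.1, 35.5, 33.8 and 35.5 CPM in those labelled wild type. Every library labelled heterozygous was below every one labelled wild type, with a log2 fold change of -0.22 ± 0.079 (SE; unadjusted p = 0.0113, adjusted p = 0.426). Kcng2, a silent subunit, had a positive difference at an unadjusted p under 0.05, with 5.86, 7.48, 7.33 and 8.34 CPM in the libraries labelled heterozygous and 5.88, 5.13, 6.13 and 5.76 CPM in those labelled wild type. They overlapped in heterozygous replicate 1 (0.34 ± 0.16; unadjusted p = 0.0432, adjusted p = 0.654), and 9.10% of the exon bases of Kcng2 are shared with a gene on the opposite strand. Kcnf1, a silent subunit and the group's highest gene per kb, had 189, 197, 199 and 191 CPM in the libraries labelled heterozygous and 199, 189.9, 221 and 196 CPM in those labelled wild type. Its groups overlapped, at -0.06 ± 0.054.

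The 4 Kv3 genes, whose channels allow fast firing and which parvalbumin interneurons use, lay from -0.07 to 0.01, and their median of -0.01 became 0.03 in males alone and 0.01 without wild type replicate 1. Kcnc4 had the largest absolute difference of the 4, -0.07 ± 0.065, with 84.1, 108, 98.05 and 94.4 CPM in the libraries labelled heterozygous and 105, 97.6, 101 and 98.6 CPM in those labelled wild type, and overlapped. The Kv4 group carries the A-type current of dendrites and its KChIP partners. Of its 7 genes 5 lay below 0, with a median of -0.05, but in the first series alone 7 of 7 did (median -0.07) and in the second 3 of 7 (median 0.03). Kcnip2 had 165, 152, 146 and 143 CPM in the libraries labelled heterozygous and 172, 153, 162 and 173 CPM in those labelled wild type. The groups overlapped through heterozygous replicate 1 (-0.12 ± 0.058; unadjusted p = 0.0462, adjusted p = 0.669). Kcnip1, also a KChIP, gave the largest absolute value of the group, 0.19 ± 0.095 (unadjusted p = 0.0602), with 22.7, 28.9, 29.6 and 30.7 CPM in the libraries labelled heterozygous and 27.9, 23.8, 23.03 and 23.5 CPM in those labelled wild type. Heterozygous replicate 1 was the lowest of all 8 and the other 3 the highest. The remaining KChIP genes lay below 0, and the pore-forming Kcnd2 and Kcnd3 stood at -0.05 and 0.0083.

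In the Kv7 group, which carries the M current that damps repeated firing, 1 of 6 genes lay below 0, with a median of 0.06. Kcnq3 averaged 242 ± 16.5 CPM in the libraries labelled heterozygous and 240.4 ± 12.9 CPM in those labelled wild type (SD, n = 4 each), at 0.0092 ± 0.056 on the log2 scale. By series Kcnq3 was at 0.14 in the first, with -0.12 in the second. Kcnq5 averaged 179.8 ± 12.8 CPM in the libraries labelled heterozygous and 170.1 ± 5.83 CPM in those labelled wild type (SD, n = 4 each), at 0.08 ± 0.055. Both subunits overlapped between the genotypes. They form neuronal M channels.

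All 7 EAG, ERG and ELK genes, which carry slow voltage-gated currents, lay below 0, with a median of -0.15. Kcnh5, an EAG subunit, had 10.8, 8.47, 7.89 and 7.22 CPM in the libraries labelled heterozygous and 9.95, 11.1, 12.1 and 11.9 CPM in those labelled wild type. Heterozygous replicate 1 lay within the wild type range and the others below it (-0.39 ± 0.14; unadjusted p = 0.00884, adjusted p = 0.386). Kcnh1, also of the EAG type, had 135, 114, 114 and 109 CPM in the libraries labelled heterozygous and 128, 131, 145 and 122 CPM in those labelled wild type, again with heterozygous replicate 1 within the wild type range (-0.16 ± 0.060; unadjusted p = 0.0154). Kcnh4, an ELK subunit, had 16.5, 16.01, 15.8 and 15.8 CPM in the libraries labelled heterozygous and 22.2, 13.6, 20.3 and 21.1 CPM in those labelled wild type. Wild type replicate 2 lay below all of the heterozygous ones (-0.26 ± 0.12; unadjusted p = 0.0402, adjusted p = 0.645). Kcnh3, an ELK subunit and the highest of the group per kb, had 230.2, 219, 209 and 219 CPM in the libraries labelled heterozygous and 222, 224, 218 and 239 CPM in those labelled wild type, and overlapped (-0.04 ± 0.050). With any 1 library left out all 7 lay below 0, though such fits share most of their libraries. With DESeq2 size factors or upper-quartile scaling all 7 did too, but the median stayed at -0.15, so scaling could hardly change the count. In the first series alone 4 of 7 lay below 0 (median -0.04), in the second 7 of 7 (median -0.25) and in males alone 6 of 7.

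The calcium- and sodium-activated group holds BK, SK and Slack channels, which follow a spike or a burst of spikes. The group also takes in Kcnu1 by its kinship to BK, without a claim on what opens its channel. Of its 10 genes 3 lay below 0, with a median of 0.02, and 6 in females alone (median -0.03). Kcnma1, the pore subunit of BK channels, averaged 357 ± 12.1 CPM in the libraries labelled heterozygous and 353 ± 17.4 CPM in those labelled wild type (SD, n = 4 each). Kcnu1, a relative of BK known from sperm, had 3.79, 3.71, 3.91 and 3.58 CPM in the libraries labelled heterozygous and 5.06, 4.38, 4.93 and 5.76 CPM in those labelled wild type. These groups did not overlap, at a low level (-0.42 ± 0.18; unadjusted p = 0.0326, adjusted p = 0.593). Kcnmb4, the neuronal BK beta subunit, was the group's highest gene per kb, with 88.1, 74.3, 75.5 and 80.8 CPM in the libraries labelled heterozygous and 76.0, 82.6, 73.6 and 70.4 CPM in those labelled wild type. The groups overlapped, at 0.08 ± 0.066, and 31.5% of its exon bases are shared with antisense genes, which the counting may not separate.

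The inward rectifiers held the smallest adjusted p and the largest fold difference of the 74. Of 12 genes 8 lay below 0, with a median of -0.02. Kcnj10 (mm10 chr1:172341210-172374085, plus strand), the astrocyte and oligodendrocyte channel that buffers potassium, had 239, 238, 231 and 268 CPM in the libraries labelled heterozygous and 283, 271, 249 and 303 CPM in those labelled wild type. The groups overlapped because heterozygous replicate 4 lay above wild type replicate 3, and the log2 fold change was -0.18 ± 0.052 (SE, 95% interval -0.29 to -0.07; unadjusted p = 0.00221, adjusted p = 0.196). With pairs of the same series and sex as a block it was -0.18 ± 0.041 and was called by edgeR (adjusted p = 0.0329), and the adjusted p ran from 0.122 to 0.9996 over the other alternatives. Kcnj12 (chr11:61022564-61071131, plus strand), a strong inward rectifier of muscle and brain, had 12.1, 12.9, 9.07 and 11.4 CPM in the libraries labelled heterozygous and 14.0, 14.0, 15.0 and 15.9 CPM in those labelled wild type. Those groups did not overlap (-0.38 ± 0.12; unadjusted p = 0.00490, adjusted p = 0.297).

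**Figure D3:**
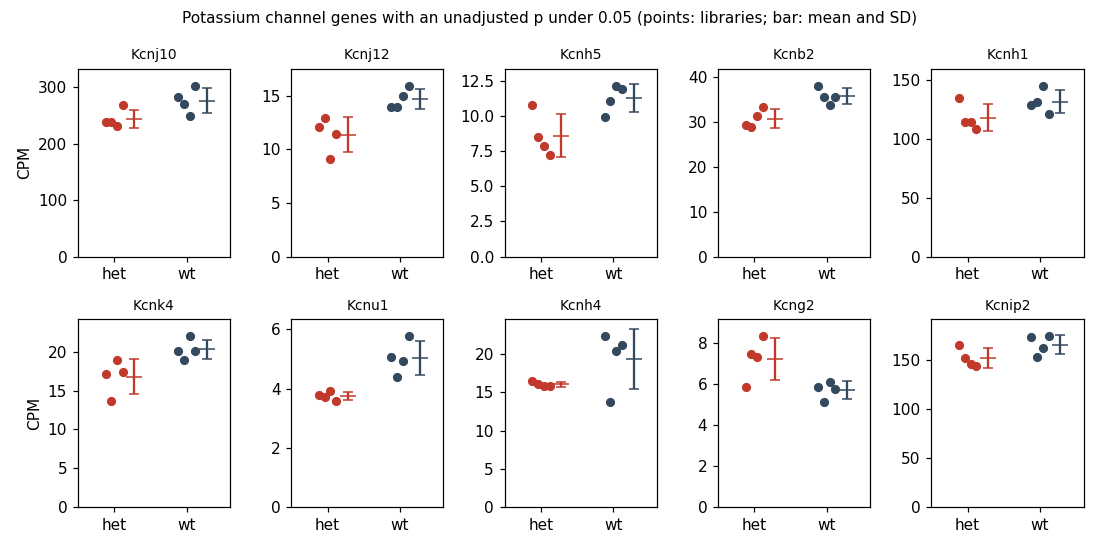
CPM of each library for 10 of the 12 genes with an unadjusted p under 0.05, with the mean and SD beside the points, heterozygous (het) left of wild type (wt) in each panel; axes start at 0. Kcnb2, Kcnu1 and Kcnj12 do not overlap and are lower in the libraries labelled heterozygous, and the other 7 overlap.

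Kcnj16 (chr11:110968033-111027968, plus strand) encodes a subunit that joins the Kcnj10 product in astrocytes and makes the channel sensitive to pH. It had 13.7, 17.0, 25.4 and 28.05 CPM in the libraries labelled heterozygous and 31.4, 27.2, 26.5 and 31.3 CPM in those labelled wild type. The groups overlapped, since heterozygous replicate 4 lay above wild type replicates 2 and 3, and heterozygous replicates 1 and 2, the animals of the first series, lay far below all others. The log2 fold change was -0.47 ± 0.21 (SE, 95% interval -0.96 to 0.03; unadjusted p = 0.0602, adjusted p = 0.722), the largest in size of the 74. In the first series alone, with 2 against 2 libraries, it was -0.93 and called (edgeR adjusted p = 1.56e-08). With so few libraries the spread in that fit was largely borrowed from other genes, so this p rests little on the spread of Kcnj16 itself. Kcnj16 was the only one of the 74 genes called in that series, where 1.18% of genes were. In the second series alone its log2 fold change was -0.11 (edgeR adjusted p = 0.853). The difference between the series, a test added after these values were seen, was 0.82 ± 0.18 (SE, second minus first; unadjusted p = 8.87e-05, adjusted p = 0.176) and was not called. Kcnj2, a nearby inward rectifier gene on chr11, stood at -0.11 ± 0.11 over all 8 libraries. By series Kcnj2 was at -0.06 in the first, with -0.18 in the second, and Kcnj10 at -0.21 in the first, with -0.14 in the second.

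**Figure D4:**
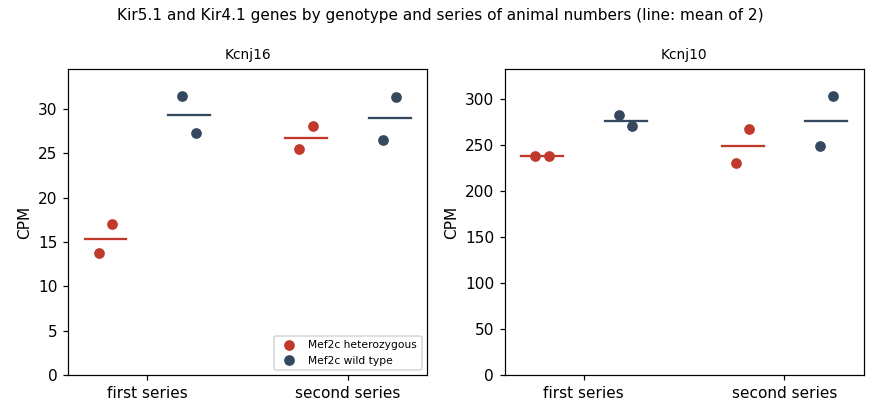
CPM of Kcnj16 and Kcnj10 in each library, by series of animal numbers and genotype, heterozygous left of wild type; each point is 1 library and each line the mean of 2. Kcnj16 in the 2 first-series libraries labelled heterozygous (13.7 and 17.0 CPM) lies below all 6 other libraries, while Kcnj10 shows no such gap.

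Markers of the cells that carry Kcnj10 and Kcnj16 are given beside them, since fewer cells of a type and less RNA per cell cannot be told apart in bulk tissue. None of 10 astrocyte markers was called and none was absent. Of them 7 lay below 0, with a median of -0.016. Their summed level was 4417 to 4734 CPM in the libraries labelled heterozygous and 4753 to 4823 CPM in those labelled wild type, without overlap. Slc1a2 weighs most in that sum. It alone averaged 2676 CPM in the libraries labelled heterozygous and 2821 CPM in those labelled wild type (-0.076 ± 0.042 on the log2 scale, SE). Gfap had the largest log2 fold change of the 10 and was higher, at 0.36 ± 0.13 (SE, edgeR unadjusted p = 0.0274, adjusted p = 0.570). The markers' median deviation from their own means was -0.041, -0.035, -0.030 and 0.067 on the log2 scale in the libraries labelled heterozygous and -0.0067, 0.039, -0.0050 and 0.029 in those labelled wild type. None of 10 markers of oligodendrocytes and their precursors was called either. Of these 6 lay below 0, with a median log2 fold change of -0.035, and their summed level was 6218 to 7882 CPM in the libraries labelled heterozygous and 6521 to 7367 CPM in those labelled wild type. Their median deviation was 0.14, -0.19, -0.084 and 0.11 in the libraries labelled heterozygous and -0.064, -0.030, 0.087 and 0.033 in those labelled wild type. None of 9 striatal markers tested was called. Their median deviation was 0.36, 0.34, 0.035 and -0.23 in the libraries labelled heterozygous and -0.27, -0.075, -0.18 and 0.043 in those labelled wild type, and their median log2 fold change was 0.52 in the first series, with -0.11 in the second. Heterozygous replicates 1 and 2, where Kcnj16 was lowest, had median deviations of -0.041 and -0.035 in astrocyte markers, and replicate 3 had -0.030. Replicates 1 and 2 were split in oligodendrocyte markers and high in striatal markers. The median log2 fold change of the astrocyte markers was -0.0016 in the first series, with -0.048 in the second. Single astrocyte markers ran in the first series from -0.38 (Gjb6) to 0.20 (S100b). The part of these markers in the Kcnj16 and Kcnj10 values was not tested.

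The promoters of Kcnj9 and Kcnj16 are shown because the search for the MEF2 consensus, the binding site of the factor family of Mef2c, found it in these alone among the matched promoters of the 74 genes. Sequences are from RefSeq (GRCm38.p6), 250 bases before to 50 after a start, printed 5′ to 3′ along the gene's strand, and the capitals mark the consensus on either strand.
Kcnj9, chr1:172329273-172329572, minus strand: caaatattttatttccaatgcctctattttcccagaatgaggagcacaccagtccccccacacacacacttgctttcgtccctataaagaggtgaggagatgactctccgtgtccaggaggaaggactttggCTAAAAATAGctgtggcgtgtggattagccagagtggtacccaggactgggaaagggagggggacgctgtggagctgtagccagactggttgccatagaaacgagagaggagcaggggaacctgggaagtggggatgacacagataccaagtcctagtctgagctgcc
Kcnj16, chr11:110967783-110968082, plus strand: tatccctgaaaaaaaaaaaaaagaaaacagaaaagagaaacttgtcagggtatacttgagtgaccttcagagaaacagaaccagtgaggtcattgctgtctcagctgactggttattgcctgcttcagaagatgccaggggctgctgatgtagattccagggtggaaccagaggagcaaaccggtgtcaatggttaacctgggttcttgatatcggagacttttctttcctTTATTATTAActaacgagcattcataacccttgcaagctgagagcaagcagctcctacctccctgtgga
The match begins 118 bases before the start in Kcnj9 and 19 bases before it in 1 of the Kcnj16 promoters. RefSeq promoters were found for 52 of the 74 genes, 75 in all, of which 2 (2.67%) held the consensus, against 1.65% of 13412 promoters of genes tested and 3.19% of all 32851. The cyclic AMP response element TGACGTCA, searched on both strands, was in 0 of the 75, against 2.98% of promoters of genes tested. Kcnj9 itself averaged 203 ± 19.5 CPM in the libraries labelled heterozygous and 212 ± 11.0 CPM in those labelled wild type (SD, n = 4 each), at -0.07 ± 0.061 on the log2 scale. A match in these letters is a description and says nothing of binding.

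Further inward rectifiers differed in sign and size, none with an unadjusted p under 0.05. Kcnj4 had 109.5, 122, 133 and 131 CPM in the libraries labelled heterozygous and 123, 123, 130.4 and 126 CPM in those labelled wild type, and overlapped (-0.02 ± 0.061). Kcnj3 and Kcnj6, subunits of G-protein-gated channels, stood at -0.02 and 0.03, and Kcnj11, the pore of neuronal ATP-sensitive channels, at 0.0058. Kcnj8, the ATP-sensitive pore of pericytes, gave the largest positive value, 0.37 ± 0.28, at 2.56 ± 0.75 CPM in the libraries labelled heterozygous and 1.98 ± 0.51 CPM in those labelled wild type (SD, n = 4 each; 95% interval of the log2 fold change -0.22 to 0.96, unadjusted p = 0.204). It stood at 0.88 in the first series alone (unadjusted p = 0.0246, adjusted p = 0.426) and at -0.19 in the second.

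All 9 two-pore-domain genes, which carry leak currents, lay below 0, with a median of -0.09, and 1 had an unadjusted p under 0.05. Kcnk4, a channel opened by stretch and lipids, had 17.2, 13.7, 19.0 and 17.4 CPM in the libraries labelled heterozygous and 20.1, 18.9, 21.9 and 20.1 CPM in those labelled wild type. Heterozygous replicate 3 lay above wild type replicate 2, so the groups overlapped (-0.27 ± 0.11; unadjusted p = 0.0161, adjusted p = 0.486), and 13.2% of the gene's exon bases are shared with a gene on the same strand. Kcnk1, the group's highest gene per kb, had 137, 123, 124 and 116 CPM in the libraries labelled heterozygous and 142, 132, 139 and 121 CPM in those labelled wild type, which overlapped (-0.09 ± 0.060). It was followed per kb by Kcnk2, a stretch-sensitive channel, at -0.02 ± 0.063, with the acid-sensitive channel genes Kcnk3 and Kcnk9 at -0.05 and -0.0079. Kcnk13, a leak channel known from microglia, had the group's largest difference, -0.31 ± 0.20, with 3.91, 3.66, 4.41 and 6.72 CPM in the libraries labelled heterozygous and 5.59, 4.84, 4.93 and 7.999 CPM in those labelled wild type. These overlapped, while microglial markers were higher in the libraries labelled heterozygous (3 of 9 tested called, summed level 396 to 447 CPM against 350 to 380 CPM). With 1 library left out 7 to 9 of the 9 two-pore-domain genes lay below 0, and 7 did in the first series alone and in males alone.

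**Figure D5:**
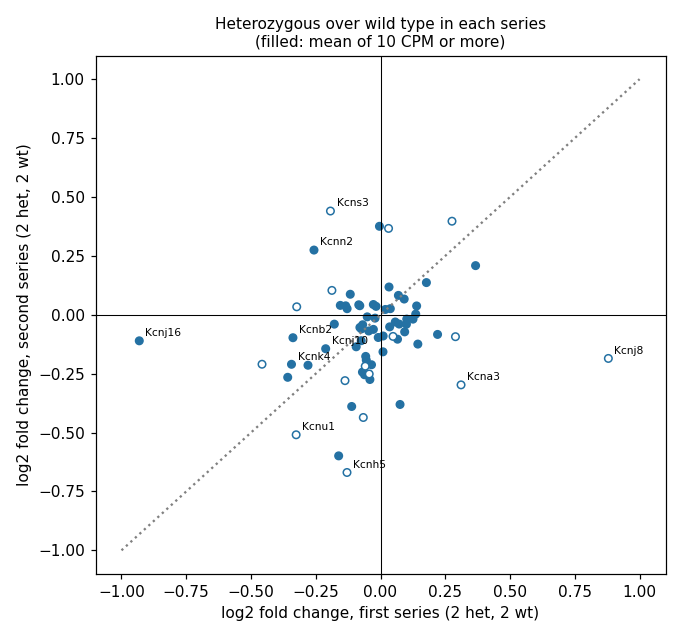
Log2 fold change, heterozygous over wild type, in the second series (vertical) against the first (horizontal), 2 against 2 libraries each; each point is 1 gene, filled where its mean is 10 CPM or more, and the dotted line marks equal values. Kcnj16 lies at -0.93 in the first series, with -0.11 in the second; Kcnmb1 had no value in the second series.

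Within each series 10 of the 12 genes with an unadjusted p under 0.05 were compared, and all 10 had the sign of the difference over all 8 libraries, of which each series is a part, but its size varied. Kcnb2 stood at -0.34 in the first series, with -0.10 in the second, and Kcnk4 at -0.34, with -0.21. Kcng2 stood at 0.28 in the first and 0.40 in the second series. Larger in the second series were the differences of Kcnj12 (-0.16 in the first, -0.60 in the second), Kcnh5 (-0.13 and -0.67), Kcnu1 (-0.33 and -0.51), Kcnh4 (-0.11 and -0.39), Kcnh1 (-0.06 and -0.25) and Kcnip2 (-0.03 and -0.21). Of the 10, Kcnh5 alone had an unadjusted p under 0.05 for the difference between the series (0.0419, adjusted p = 0.999).

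Across the libraries the median deviation of the 74 genes from their own mean was 0.021, -0.040, -0.036 and -0.024 on the log2 scale in the libraries labelled heterozygous and 0.024, 0.012, 0.021 and 0.024 in those labelled wild type. Heterozygous replicate 1 thus lay in the wild type range and the other 3 below it. The median biological coefficient of variation of the genes at 10 CPM or more was 6.59%, beside 7.24% over all genes at that level.

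Sex and series of animal numbers left the genes without a called difference too. For male against female, edgeR called 0 of 74, against 0.0288% of all genes, and 2 had an unadjusted p under 0.05 (2.70%, against 2.92%); DESeq2 and limma-voom called 0. These were Kcnj10, with a log2 fold change of -0.14 ± 0.052 (male over female), and Kcnh1, with 0.15 ± 0.060. For the difference in genotype effect between males and females edgeR called 0 of 74 and 0% of all genes, with 4 at an unadjusted p under 0.05 (5.41%, against 2.64%), namely Kcng1, Kcnd3, Kcnh7 and Kcnj3, and DESeq2 and limma-voom called 0. For the second against the first series edgeR called 0, against 0.382% of all genes, with 7 at an unadjusted p under 0.05 (9.46%, against 10.2%), and DESeq2 and limma-voom called 0. For the genotype difference between the series, added after Kcnj16 was seen, edgeR called 0 of 74, against 0.00721% of all genes, with 7 at an unadjusted p under 0.05 (9.46%, against 4.09%): Kcnj16, Kcnn2, Kcnh2, Kcnq3, Kcns3, Kcnh5 and Kcnip1, and DESeq2 and limma-voom called 0.

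Other genes of potassium handling were counted from lists. Of 36 tested genes listed as related to these channels but not named Kcn, edgeR called 0. The list holds partners, such as the Dpp subunits and the scaffold Dlg genes, and channels of their own, such as the HCN channels. At an unadjusted p under 0.05, 2 were lower, Dlg1 (-0.16 ± 0.049) and the scarce Hcn4 (-0.66 ± 0.25). By the same threshold 1 was higher, Kctd8, a subunit of the GABA-B receptor (0.29 ± 0.12). The median of the 36 was -0.02. Of 15 pumps and transporters of potassium, edgeR also called 0, with 1 at an unadjusted p under 0.05, and the median was -0.07.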

How the data were processed

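The count table deposited by the authors holds raw reads per gene symbol. STAR 2.5.2b, HTSeq and mm10 are named in the submitters' processing notes. Neither the annotation nor how strand was handled is stated in those notes, so antisense and overlapping genes cannot be told apart. Exons of 25 of the 74 genes overlap another annotated gene, 7 by 10% or more of their bases. GENCODE M21 gave exon lengths and coordinates by symbol (19891 of 22000 rows).

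Genes passing edgeR's filterByExpr by genotype (minimum count 10; 13879 genes) were scaled by TMM and tested with edgeR 4.0.16 in R 4.3.3 (robust quasi-likelihood fit with sex and genotype; F-test), with Benjamini-Hochberg adjustment over all of them and a call under 0.05. Intervals use the t quantile of the fit. Further fits added an interaction with sex, the series of animal numbers, an interaction with that series, or a block of the 4 pairs of the same series and sex; the last 2 were chosen after the results were seen. DESeq2 1.42.0 and limma-voom (limma 3.58.1), other scalings, filters, covariates and subsets, and leaving out each library were alternatives. CPM was computed from each library's total over the genes that passed the filter, multiplied by its TMM factor. Few reads limit the precision of scarce genes. The titles name 8 animals. The fit was also run on simulated counts with known changes, and the share of them it recovered is not given here.

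Values per library are given for genes with an unadjusted p under 0.05 for genotype and, in each role, for the highest per kb of exon and the largest absolute log2 fold change (mean of at least 1 CPM); others are named with fewer values. Some genes that meet this rule are not reported here. The members and lists were chosen with earlier results of these data known.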

Additional observations from a re-analysis of the deposited data

Results flagged for a closer look

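Kcnip1 in wild type replicate 1 stood apart from the other 3 wild type libraries, at 27.9 CPM beside 23.8, 23.0 and 23.5 CPM. It was the 1 such group among 44 looked at, and chance alone gives about 1 in 20.

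Kcnj4 lay on opposite sides of 0 in the 2 series, without overlap between genotypes in either. With 2 against 2 libraries a lack of overlap is common by chance, and the share of genes with this pattern was not counted. In the first series it had 109.5 and 122.2 CPM in the libraries labelled heterozygous and 122.8 and 122.95 CPM in those labelled wild type, and in the second 132.5 and 131.2 CPM in the libraries labelled heterozygous and 130.4 and 125.7 CPM in those labelled wild type. The difference between the series was tested in edgeR and was 0.13 ± 0.11 on the log2 scale (SE, second minus first; unadjusted p = 0.258, adjusted p = 0.999), so it was not called.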

How the results depend on the processing

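No potassium channel gene was called under 12 of the 14 alternatives besides left-out libraries, nor with any 1 library left out; 1 was called with the first series alone, Kcnj16, and 1 with pairs of the same series and sex as a block, Kcnj10. The median log2 fold change of -0.04 lay between -0.06 and -0.02 with 1 library left out and was -0.014 in males alone. The number of all genes called, 37, became 80 with DESeq2, 82 with no filter, 72 with sex and series as terms, 124 with those pairs as a block, 164 in the first series alone, 70 in the second, 7 in males alone, 6 in females alone and 72 at an adjusted p under 0.1, and lay between 19 and 80 with 1 library left out. The cause was not tested.

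Some named genes changed direction: Kcnj4 was 0.042 in the second series alone and 0.030 in females alone and lay between -0.064 and 0.043 with 1 library left out; Kcnh3 was 0.010 and Kcnip1, 0.19 over all libraries, -0.0042 in the first series alone. Of genes named with fewer values, Kcnh2 (-0.15) was 0.08 in the first and -0.38 in the second series, and Kcns3 (0.11) was -0.19 and 0.44. Kcnn2 (0.0095) was -0.26 in the first and 0.27 in the second series, and Kcnq3 (0.0092) was 0.14 and -0.12. For Kcnn2 and Kcnq3 a value near 0 over all libraries thus joined opposite signs in the series. Kcnj16 lay between -0.65 and -0.32 with 1 library left out and never crossed 0. The labels give no replicate numbers shared by the genotypes; the block, chosen after seeing the data, pairs the 1 heterozygous and 1 wild type animal of each series and sex, and left the median log2 fold change of the 74 genes at -0.04. Each genotype has 4 mice, and genes below 10 CPM have wide intervals.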
